A study of Homo sapiens with 10 samples.

Results

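The BCL2 family was examined in the ST486 line of human Burkitt's lymphoma, a cancer of germinal centre B cells, after an shRNA (a short hairpin RNA that lowers a chosen mRNA) against the kinase STK38. Its 10 member genes were BCL2, BCL2L1, MCL1 and BCL2A1, which keep cells alive, and BAX, BAK1, BID, BAD, BIK and BCL2L11, which promote death. All probe sets whose annotation named 1 gene, that gene being a member, were taken, 23 of the 12625 on the array, for 10 of the 8226 genes with such a probe set. Total RNA was measured on Affymetrix HG-U95Av2 arrays 60 h after lentiviral transduction. The STK38 group held 5 arrays of cells given STK38 shRNA TRCN0000010215, a single hairpin, and the control group 5 arrays of cells given the non-target control shRNA SHC002, so that both groups carried a lentiviral hairpin. The labels do not say whether replicates were separate cultures, so the p-values reflect the scatter of these arrays alone, part or all of which may be technical.

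Proteins of this family decide whether the outer mitochondrial membrane stays closed. The survival proteins hold BAX and BAK1 in check, BH3-only proteins such as BID, BAD, BIK and BIM (the product of BCL2L11) bind the survival proteins or activate BAX and BAK1 directly, and active BAX and BAK1 form pores that release cytochrome c, upon which caspase-9 is activated. In B cell lymphomas the family is known from the translocation of BCL2 in follicular lymphoma, and in Burkitt's lymphoma from the death that high MYC levels provoke unless it is held back.

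The STK38 shRNA lowered its target. The brightest STK38 probe set fell by 2.19 on the log2 scale, from 5.02 ± 0.22 to 2.83 ± 0.21 (deposited signal, SD, n = 5 each, limma adjusted p = 5.65e-08). The dimmer STK38 probe sets fell less, by 1.16 (adjusted p = 0.00110) and 0.82 (adjusted p = 0.00407). The brightest probe set of MYC, whose translocation defines this lymphoma, fell by 1.38, from 8.68 ± 0.25 to 7.30 ± 0.34 (adjusted p = 9.56e-06). STK38 shRNA replicate 4 stood apart, with a mean correlation of 0.982 with its own group where every other array had at least 0.992. Its values were also more compressed. The median over the array was the highest, 2.25 where the others had 2.12 to 2.17. The upper quartile was the lowest, 3.54 where the others had 3.91 to 4.02. This array had the highest summed log2 signal of the monocyte, epithelial, stromal and T cell marker lists. The part of the raised median in these sums was not tested. In the controls and with the STK38 shRNA, the sums ranged from 7.16 to 8.0 and 7.29 to 9.17 over 4 monocyte genes, from 10.96 to 12.03 and 11.34 to 13.28 over 5 epithelial genes, from 7.66 to 7.82 and 7.63 to 8.78 over 4 stromal genes, and from 14.02 to 14.35 and 13.44 to 14.50 over 5 T cell genes. Of these lists only KRT8 and TRBC1 exceeded background (a level set from control probe sets, 2.36 to 2.66) on every array, and only TRBC1, a T cell receptor segment, was called, lower by 1.43-fold from 8.27 to 7.76 (adjusted p = 0.000676). The other T cell genes, CD3D, CD3E, CD3G and CD2, stayed under background, as did CD14, LYZ, CSF1R, EPCAM and CDH1. Of 8 measured B cell markers, 6 exceeded background on every array and PAX5 on none, and the list summed to 44.05 to 44.94 in the controls and 40.30 to 41.74 with the STK38 shRNA. MME fell 3.02-fold, CD38 2.81-fold and BCL6 1.51-fold, and CD79A rose 1.41-fold. BCL6 exceeded background on 3 arrays with the STK38 shRNA and on 5 controls. CD79B and CD22 were not called, with log2 differences of -0.19 and -0.095. MS4A1, the surface antigen targeted by rituximab, read 8.69 in both groups. The part of these marker shifts in the results below was not tested.

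Across the family, BCL2 and BCL2L1 were lower and BAK1 was higher with the STK38 shRNA. BCL2 fell 1.93-fold at 1 of its 5 probe sets, BCL2L1 fell 1.39-fold and 1.67-fold at both of its probe sets, and BAK1 rose 1.93-fold and 1.95-fold at both of its own. MCL1, BAX, BID, BAD, BIK and BCL2L11 were not called, and BCL2A1 was too dim to be tested. In counts, 18 of the 23 probe sets passed the filter on low signal, and 5 of those 18 were called in limma, 3 lower and 2 higher. Over all 7535 probe sets tested 29.9% were called, 15.8% lower and 14.1% higher, so that the share of members, 27.8%, was close to that of the whole array. Without STK38 shRNA replicate 4, 7 of the 18 were called, 4 higher and 3 lower, where 37.6% of all tested probe sets were called, 20.7% higher and 16.9% lower. The median size of the log2 difference was 0.22 over the 18 and 0.18 over all tested. The 2 groups of arrays did not overlap at 5 of the 18, the 5 that were called, where 22.1% of all tested probe sets did not overlap. In bulk RNA, fewer cells with a transcript and less of it per cell cannot be told apart.

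**Figure D1:**
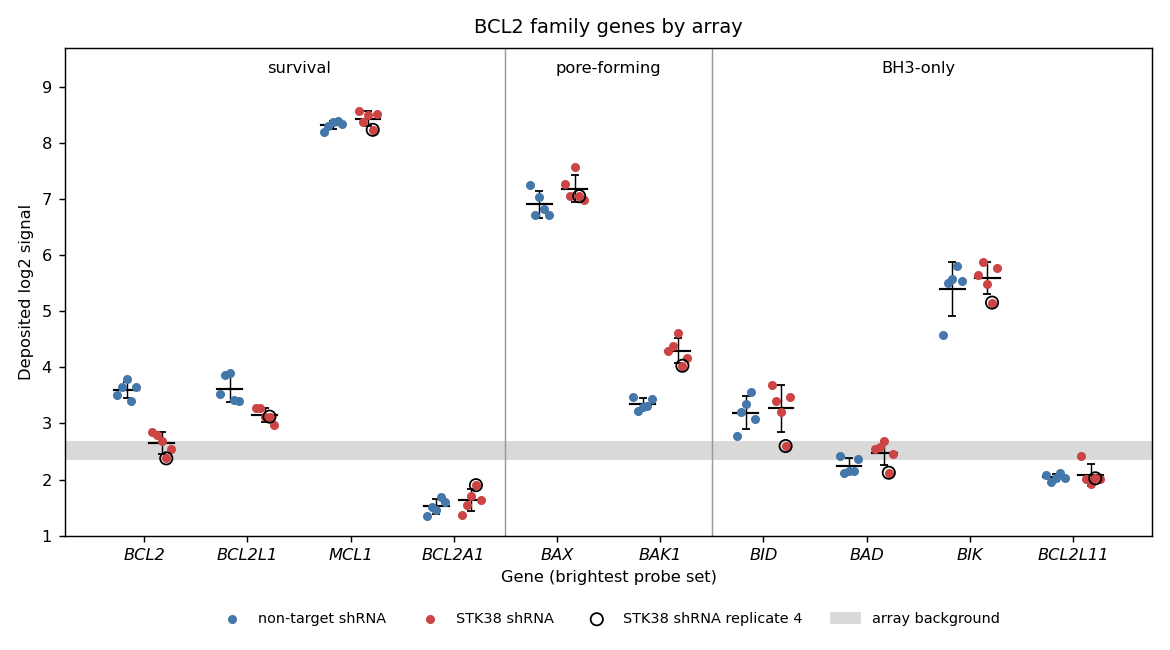
Deposited log2 signal of the brightest probe set of each of the 10 genes on every array. Points are arrays, horizontal bars group means, error bars SD (n = 5 each), circles mark STK38 shRNA replicate 4 and the grey band spans the array backgrounds of 2.36 to 2.66. BCL2 and BCL2L1 lie lower and BAK1 higher with the STK38 shRNA without overlap, while BCL2A1 and BCL2L11 lie at or below the band.

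Sequences before the start sites are shown for the genes that changed, BCL2, BCL2L1 and BAK1, and for BAX, whose sequence holds the motif bound by MYC and MAX. RefSeq sequences of assembly GRCh38.p14 were matched for 8 of the 10 members, all but MCL1 and BIK, and these had 14 listed start sites. Each line gives the 250 bases before the first listed start site, 5′ to 3′ on the gene's strand, with every CACGTG (the E-box, which reads the same on both strands) in capitals.
BCL2, chr18:63319770-63320019, minus strand: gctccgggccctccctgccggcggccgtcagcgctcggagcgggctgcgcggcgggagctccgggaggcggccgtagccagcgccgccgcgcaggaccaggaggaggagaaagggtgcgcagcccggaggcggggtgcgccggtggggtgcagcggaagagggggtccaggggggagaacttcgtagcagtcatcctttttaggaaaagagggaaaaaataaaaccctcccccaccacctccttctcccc
BCL2L1, chr20:31723964-31724213, minus strand: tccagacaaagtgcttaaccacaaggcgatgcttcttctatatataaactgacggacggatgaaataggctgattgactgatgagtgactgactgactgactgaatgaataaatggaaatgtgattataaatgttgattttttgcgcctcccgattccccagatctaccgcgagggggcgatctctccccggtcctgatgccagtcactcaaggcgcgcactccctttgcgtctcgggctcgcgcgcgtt
BAK1, chr6:33580277-33580526, minus strand: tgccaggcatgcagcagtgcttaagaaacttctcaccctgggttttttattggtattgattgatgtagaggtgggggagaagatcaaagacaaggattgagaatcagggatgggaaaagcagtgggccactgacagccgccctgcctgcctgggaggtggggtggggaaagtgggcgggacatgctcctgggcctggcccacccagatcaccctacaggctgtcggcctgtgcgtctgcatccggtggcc
BAX, chr19:48954625-48954874, plus strand: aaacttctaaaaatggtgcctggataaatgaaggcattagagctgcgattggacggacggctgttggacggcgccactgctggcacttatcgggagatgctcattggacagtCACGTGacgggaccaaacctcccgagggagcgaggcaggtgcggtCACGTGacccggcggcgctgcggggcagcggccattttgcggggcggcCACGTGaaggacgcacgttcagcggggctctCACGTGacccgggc
The BAX sequence held 4 CACGTG motifs, which began 138, 93, 45 and 14 bases before the start site. Of 35116 RefSeq sequences of the same length, 6.34% held at least 1 such motif and 5 held at least 4. No CACGTG was found in the sequences of BCL2, BCL2L1 or BAK1. Among the other members with a sequence it occurred once before each of 2 of the 5 start sites of BID. These 2 BID sequences overlap, and the motif is the same one in both. The GC box GGGCGG, bound by SP1, was found on either strand 2 times in the BAK1 sequence, 1 time in that of BAX, 3 times in that of BCL2L11, 1 time before each start site of BAD and up to 4 times before 4 of the 5 start sites of BID, and 42.6% of all sequences held it. The BAD sequences overlap and share their 1 match, and overlapping BID sequences likewise share matches. The BCL2L11 sequence alone among the members with a sequence held GTAAACA on either strand, a motif of forkhead factors such as FOXO3. Of all sequences, 2.98% held it. The BCL2L11 match lay on the gene's strand and began 223 bases before the start site. None of the matches in the sequences of BAX, BAK1 and BCL2L11 overlap, and a match is a description of these letters and not a site shown to be bound.

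Among the survival genes, BCL2, the founding member of the family, had no E-box in the sequence above. Its brightest probe set read 2.85, 2.79, 2.69, 2.38 and 2.54 in STK38 shRNA replicates 1 to 5 and 3.51, 3.65, 3.78, 3.40 and 3.64 in non-target replicates 1 to 5 (log2 signal). Every STK38 shRNA array was below every control array, and the lowest of them, replicate 4, was the 1 array not above background. The log2 difference was -0.95 (SE 0.12, limma adjusted p = 3.98e-05), and 245 of the 7535 tested probe sets fell by more. It was -0.88 (adjusted p = 6.92e-06) without replicate 4. The other BCL2 probe sets did not show this fall. The second brightest, which exceeded background on 3 arrays with the STK38 shRNA and 2 without, had a difference of 0.016 (95% interval -0.18 to 0.21), and the remaining 3 were not above background on any array and did not pass the filter. The fall of BCL2 thus rests on 1 of 5 probe sets, and the mean of all 5 fell by 0.19 (SE 0.056, adjusted p = 0.0166).

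BCL2L1 encodes BCL-XL, a survival protein that holds both BAX and BAK1. Both of its probe sets come from 1 sequence record. The brighter read 3.28, 3.27, 3.11, 3.12 and 2.97 with the STK38 shRNA and 3.53, 3.85, 3.90, 3.42 and 3.41 in the controls. The dimmer read 2.92, 2.82, 2.98, 2.48 and 2.92 with the STK38 shRNA and 3.42, 3.86, 3.77, 3.57 and 3.20 in the controls. At both, every STK38 shRNA array lay below every control array, though the nearest arrays of the groups were closer than the SD of the controls. The log2 differences were -0.47 (SE 0.13, adjusted p = 0.0134) at the first and -0.74 (SE 0.15, adjusted p = 0.00126) at the second, which exceeded background on all arrays but STK38 shRNA replicate 4. Both calls held without any single array, with adjusted p-values up to 0.0422 and 0.00495.

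MCL1, a short-lived survival protein on which many B cells depend, had bright probe sets that differed little. The brighter read 8.57, 8.37, 8.49, 8.23 and 8.51 with the STK38 shRNA and 8.20, 8.30, 8.37, 8.39 and 8.34 in the controls, so that the groups overlapped. The log2 difference was 0.12 (95% interval -0.046 to 0.28, adjusted p = 0.300), and that of the dimmer was 0.11 (95% interval -0.078 to 0.30, adjusted p = 0.412). These intervals allow a rise of up to 0.30 and a fall of up to 0.078 on the log2 scale. BCL2A1, a survival gene that NF-kappaB induces, read 1.35 to 1.69 in the controls and 1.37 to 1.90 with the STK38 shRNA, was not above background on any array and has no test.

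**Figure D2:**
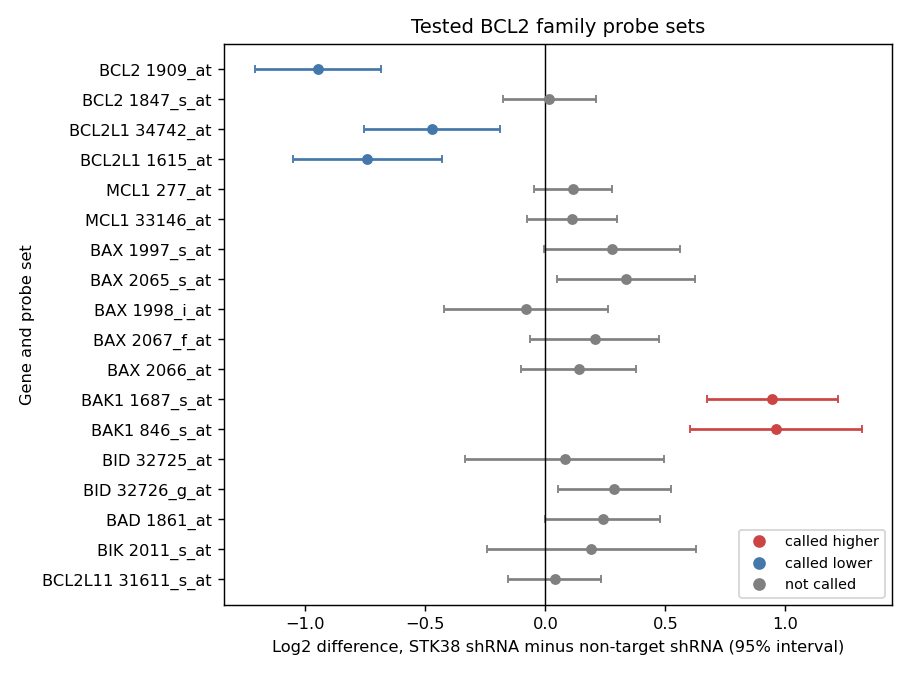
Log2 difference, STK38 shRNA minus non-target shRNA, of the 18 tested probe sets of the family. Points are differences of group means and bars 95% intervals from limma (n = 5 each); blue marks probe sets called lower, red called higher and grey not called. Both BAK1 probe sets lie near 0.95, both BCL2L1 probe sets below 0, and the tested BCL2 probe sets at -0.95 and 0.016.

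Among the pore-forming genes, BAK1 rose and BAX was not called. BAK1 encodes BAK, which sits in the outer mitochondrial membrane of healthy cells. The brighter of its probe sets read 4.29, 4.38, 4.61, 4.03 and 4.16 with the STK38 shRNA and 3.48, 3.23, 3.30, 3.31 and 3.44 in the controls. The dimmer read 4.02, 4.22, 4.34, 3.46 and 4.15 with the STK38 shRNA and 3.31, 2.73, 3.06, 3.08 and 3.21 in the controls. Every STK38 shRNA array was above every control array at both, and replicate 4 was the lowest of its group at both. The log2 differences were 0.95 (SE 0.13, adjusted p = 5.72e-05) and 0.96 (SE 0.17, adjusted p = 0.000491), and 123 and 119 of the 7535 tested probe sets rose by more. Without replicate 4 they were 1.01 and 1.11. The probe sets were designed on different sequence records, and all 10 arrays were above background at each.

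BAX, which moves from the cytosol to mitochondria when it is activated, had 5 probe sets on 4 sequence records, and none was called. The brightest read 7.28, 7.05, 7.56, 7.05 and 6.99 with the STK38 shRNA and 7.25, 6.71, 7.04, 6.82 and 6.71 in the controls. The groups overlapped, with non-target replicate 1 above 3 of the STK38 shRNA arrays, and the difference was 0.28 (95% interval -0.0042 to 0.56, adjusted p = 0.137). That of the second brightest was 0.34 (95% interval 0.048 to 0.62, adjusted p = 0.0766). The next 3 in order of brightness gave -0.081, 0.20 and no exact size, the dimmest exceeding background on 3 arrays with the STK38 shRNA and 0 without. This depended on the control probe sets that set the background. With those of human genes left out, the dimmest exceeded background on 4 arrays with the STK38 shRNA and 5 without. The calls depended on single arrays and on the processing: the second brightest was called without STK38 shRNA replicate 4 (0.44, adjusted p = 0.00638), and also after quantile normalization (adjusted p = 0.0235) and with array weights (adjusted p = 0.00928), and the brightest without non-target replicate 1 (0.36, adjusted p = 0.04997). The mean of all 5 had a difference of 0.18 (SE 0.10, adjusted p = 0.204).

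None of the BH3-only members was called, 0 of 5 tested probe sets in limma, of which 1 had an unadjusted p under 0.05. Over all tested probe sets 29.9% were called. PMAIP1, a BH3-only gene outside the member list, is described below. BID, which caspase-8 cleaves to link death receptors to mitochondria, had 2 probe sets on 1 sequence record. The brighter read 3.68, 3.39, 3.20, 2.60 and 3.48 with the STK38 shRNA and 2.77, 3.20, 3.34, 3.55 and 3.08 in the controls, and the groups overlapped throughout (difference 0.080, 95% interval -0.33 to 0.49). The dimmer had a difference of 0.29 (95% interval 0.053 to 0.52, unadjusted p = 0.0198, adjusted p = 0.0630) and was called without non-target replicate 2 (0.35, adjusted p = 0.0300), with array weights (0.0489), with the filter at the 60th percentile (0.0440) and without a variance trend (0.0488, all adjusted p).

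BAD, a BH3-only protein that binds BCL2 and BCL-XL and is held in the cytosol by 14-3-3 proteins when phosphorylated, read 2.54, 2.58, 2.69, 2.12 and 2.46 with the STK38 shRNA and 2.42, 2.11, 2.16, 2.14 and 2.37 in the controls. It exceeded background on 4 arrays with the STK38 shRNA, all but replicate 4, and on 0 without. With all controls under this background the difference has no exact size. With the control probe sets of human genes left out of the background, 5 controls and 4 arrays with the STK38 shRNA exceeded it. The difference on the deposited values was 0.24 (95% interval -0.0012 to 0.48). The fit on the deposited values did not call BAD (adjusted p = 0.133) but did so without replicate 4 (adjusted p = 0.00773) or with array weights (adjusted p = 0.00327). BIK, a BH3-only protein of the endoplasmic reticulum, read 5.64, 5.88, 5.49, 5.15 and 5.77 with the STK38 shRNA and 4.57, 5.50, 5.57, 5.80 and 5.53 in the controls. The groups overlapped, non-target replicate 1 was far below the rest, and the difference was 0.19 (95% interval -0.24 to 0.63, adjusted p = 0.561).

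BCL2L11, which encodes BIM, a BH3-only protein known to set the survival of lymphocytes, was not above background on any array. The brighter of its probe sets read 1.92 to 2.41 with the STK38 shRNA and 1.95 to 2.11 in the controls and was not called (adjusted p = 0.818). The dimmer, which did not pass the filter, read 1.66 to 1.78 with the STK38 shRNA and 1.81 to 2.05 in the controls. These groups did not overlap. Values below background carry no size, at either probe set.

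**Figure D3:**
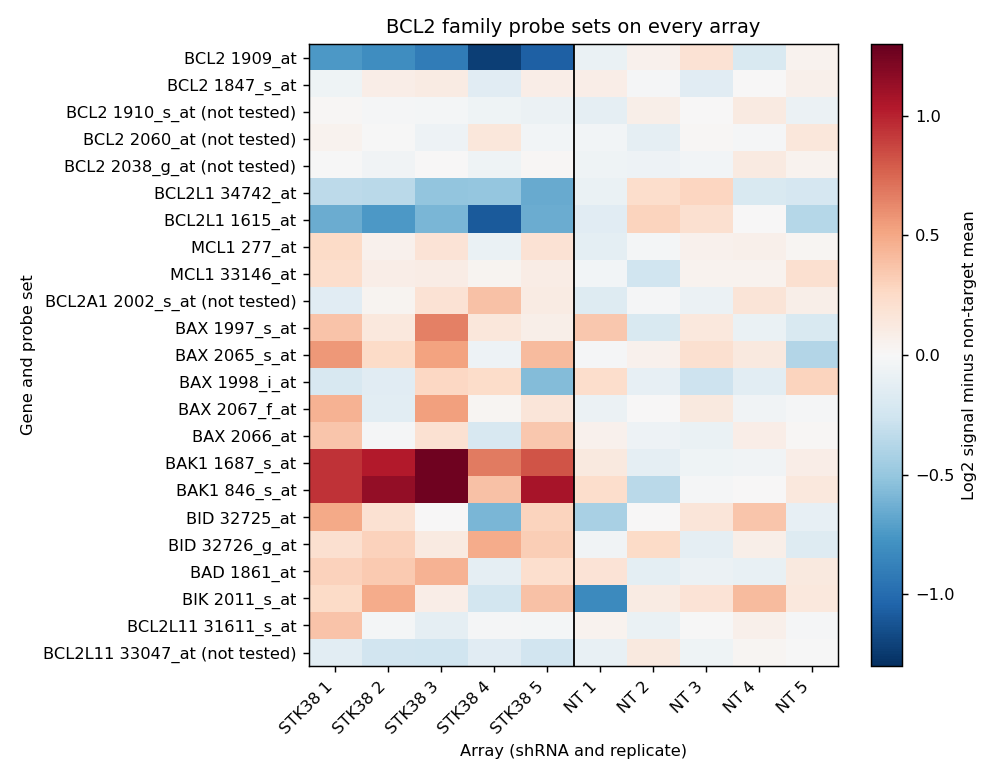
Log2 signal minus the mean of the non-target arrays for all 23 probe sets of the family (rows) on the 10 arrays (columns, shRNA and replicate); red is higher and blue lower, and the colour scale ends at 1.3 in each direction. The brightest BCL2 probe set and both BCL2L1 probe sets are blue and both BAK1 probe sets red on all 5 STK38 shRNA arrays, with the palest red of BAK1 on replicate 4.

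By brightest probe set, 2 of the 3 survival genes tested fell and 0 rose, and 1 of the 6 death genes rose and 0 fell; over all 5403 genes tested 15.8% fell and 15.2% rose. For each array the deviation from the non-target mean was averaged over the 4 survival genes and over the 6 death genes, as a description with no test. These include BCL2A1 and BCL2L11, which were not above background on any array. The survival mean was -0.25, -0.27, -0.26, -0.36 and -0.35 in STK38 shRNA replicates 1 to 5, all below the control range of -0.12 to 0.11. The death mean was 0.45, 0.36, 0.39, -0.024 and 0.29, above the control range of -0.092 to 0.10 on all but replicate 4. The survival mean minus the death mean was -0.59 ± 0.15 with the STK38 shRNA (log2, SD, n = 5), from -0.70 to -0.33, and -0.14 to 0.13 in the controls. It was -0.66 without replicate 4. The 3 called genes carried it: without BCL2 and BCL2L1 the survival mean, then of MCL1 and the below-background BCL2A1, was 0.11 ± 0.063, without BAK1 the death mean was 0.17 ± 0.20, and their difference was -0.051 ± 0.23, from -0.31 to 0.31.

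**Figure D4:**
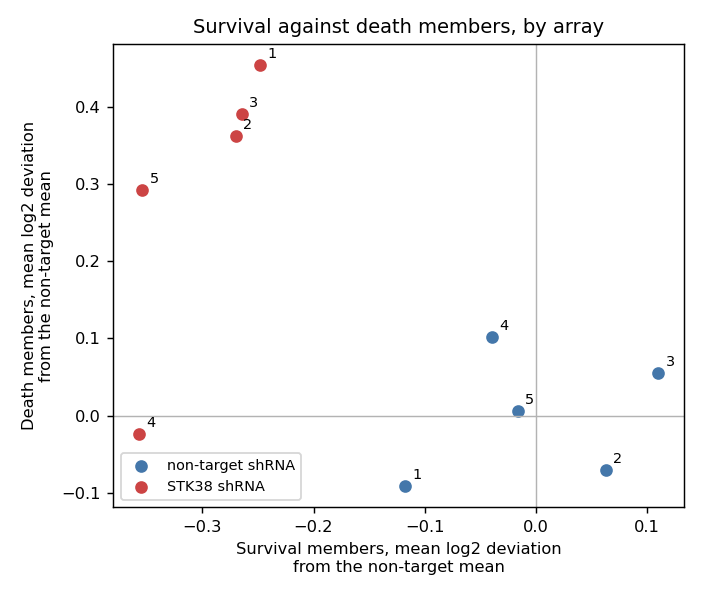
Mean log2 deviation from the non-target mean over the 4 survival genes (horizontal axis) and over the 6 death genes (vertical axis), brightest probe set per gene; each point is an array, numbered by replicate. The 5 STK38 shRNA arrays lie left of all controls, and all of them but replicate 4 lie above all controls.

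Of 60 other apoptosis genes listed, 45 had a probe set with 1 gene and 39 were tested, of which 9 rose and 6 fell; that is 38.5%, near the 31.0% of all genes called by brightest probe set, and 24 did not pass. Their median log2 difference was 0.074, and that of all genes tested 0.019. VDAC1, a channel of the outer mitochondrial membrane, had the largest fall of the list, and CASP9, the caspase started by cytochrome c, the largest rise.

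Of the other BCL2 relatives and BNIP genes, 5 were tested, of which 2 fell and 0 rose, where 15.8% of all genes tested fell and 15.2% rose. BNIP2, a protein found by its binding to BCL2 and a viral relative, fell 1.56-fold (log2 difference -0.64, SE 0.11, adjusted p = 0.000596). PMAIP1, which encodes the BH3-only protein NOXA, an antagonist of MCL1, fell 1.32-fold (-0.40, SE 0.12, adjusted p = 0.0236), a call lost without STK38 shRNA replicate 3, non-target replicate 2 or non-target replicate 4, with adjusted p-values up to 0.0670. BNIP3L, a mitophagy receptor, was bright and had a difference of 0.097 (adjusted p = 0.329). BNIP1 had 0.24 (adjusted p = 0.125; adjusted p = 0.0328 without STK38 shRNA replicate 4), and HRK, a BH3-only gene above background on 1 array, was not called (adjusted p = 0.840). BCL2L2 and BNIP3 were not above background on any array.

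Among binding partners and regulators, 5 of 19 tested genes rose and 3 fell, where 15.2% of all genes tested rose and 15.8% fell. VDAC1 read 9.22 ± 0.11 in the controls and 7.71 ± 0.16 with the STK38 shRNA (log2, SD, n = 5 each), or 2.85-fold lower (-1.51, SE 0.083, adjusted p = 1.25e-08), and 2.84-fold lower at a second bright probe set. A dim VDAC1 probe set was also called lower on the deposited values (-0.29, adjusted p = 0.0104). It stayed under background on every array, so its fall has no exact size. TMBIM6, the membrane protein BAX inhibitor-1, rose 1.66-fold and 1.46-fold at its probe sets, without overlap between the groups. YWHAZ, a 14-3-3 protein that can bind BAD, rose by 0.51 and 0.35 on the log2 scale at its bright probe sets, while a dim probe set had -0.014. The forkhead factor genes moved apart: FOXO3 rose 1.47-fold (adjusted p = 0.0109) and FOXO1 fell 1.74-fold (adjusted p = 0.00767). PPP1CA, a catalytic subunit of protein phosphatase 1, fell 1.23-fold (adjusted p = 0.00530).

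Downstream of the mitochondrion, 4 of 10 tested genes of cytochrome c, other mitochondrial proteins, caspases and inhibitors of apoptosis rose and 1 fell. Of all genes tested, 15.2% rose and 15.8% fell. Of the 4, 1 was BIRC2, which encodes an inhibitor of apoptosis protein (1.39-fold, adjusted p = 0.00555). CASP9 read 4.33 ± 0.25 in the controls and 5.30 ± 0.18 with the STK38 shRNA (log2, SD, n = 5 each), or 1.96-fold higher (0.97, SE 0.14, adjusted p = 8.85e-05). Its dimmer probe set rose by 1.06 on the deposited values, though only 2 controls exceeded background there. The groups overlapped at that probe set, as STK38 shRNA replicate 4 read 2.70 and the highest control 2.72. CASP10, an initiator caspase of death receptors, stayed under background in all 5 controls at its brightest probe set. With control probe sets of human genes left out of the background, all 5 controls and 5 STK38 shRNA arrays exceeded it. CASP10 was called higher on the deposited values (adjusted p = 0.0183). With each control taken at no less than its array's background, which was not tested, it was at least 1.22-fold higher. This call was lost without STK38 shRNA replicate 3 or 5 or non-target replicate 2, with adjusted p-values up to 0.0527. A second CASP10 probe set, above background on 2 arrays of each group, had a difference of 0.20 and was not called (adjusted p = 0.355). The remaining CASP10 probe sets did not pass the filter, so the rise rests on 1 probe set. HTRA2, a mitochondrial protease, fell 1.40-fold (adjusted p = 0.0175; adjusted p = 0.0519 without non-target replicate 3), and exceeded background on 4 of the 5 arrays with the STK38 shRNA. Of 5 tested genes of the death receptors, 0 were called in limma and 0 had an unadjusted p under 0.05.

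**Figure D5:**
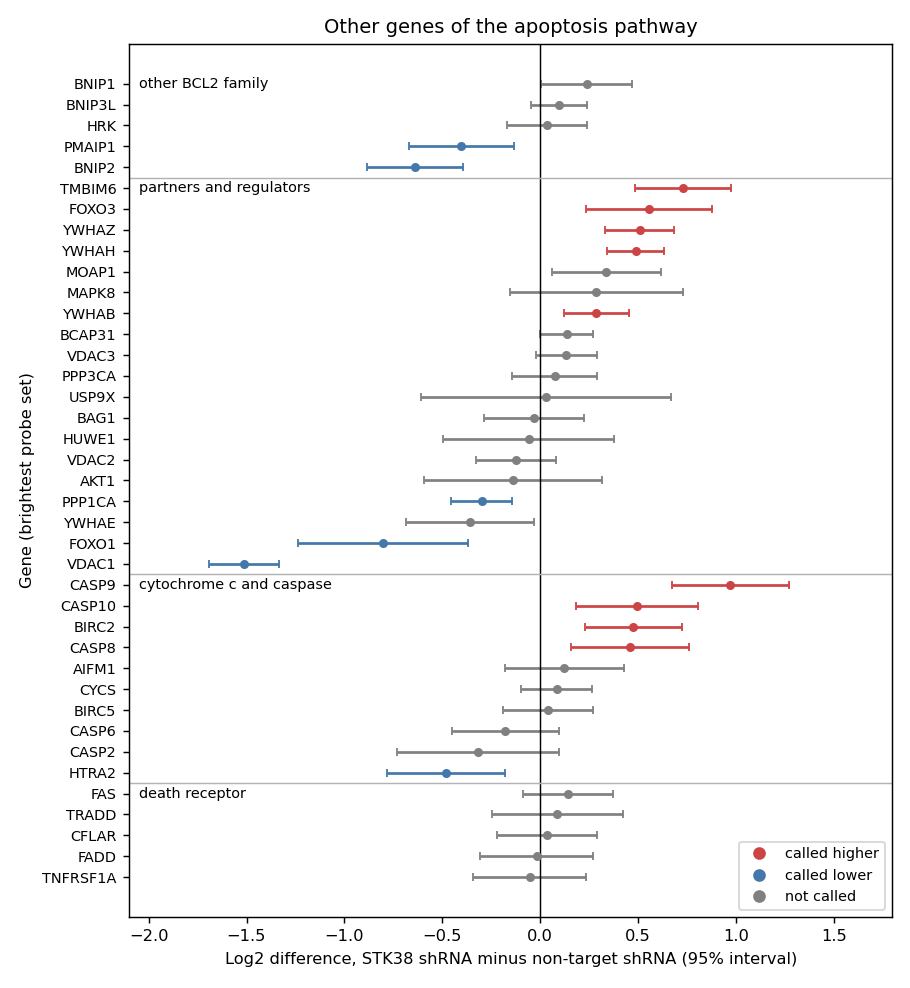
Log2 difference, STK38 shRNA minus non-target shRNA, of the 39 tested pathway genes by brightest probe set, in 4 groups. Points are differences of group means and bars 95% intervals from limma (n = 5 each); red marks genes called higher, blue called lower and grey not called. VDAC1 lies at -1.51 and CASP9 at 0.97, and the death receptor genes lie near 0.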

How the data were processed

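Per the labels, total RNA was purified with TRIZOL and columns, labelled with biotin and hybridised to 1-colour arrays. The deposited values are log2 expression, 1 per probe set and array. The authors used GCRMA and affy, per the submitters' processing notes, and their versions are not given in the sources used here. No label states the log2 scale, which was inferred from the range of 0.35 to 12.65 and from GCRMA. GCRMA draws dim probe sets to a common floor, which shrinks their differences.

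Groups came from the labels. Gene names came from GEO's platform annotation and were brought to RefSeq symbols by Entrez identifier. After removal of 67 control probe sets, a probe set was tested if its 10-array mean reached the 40th percentile, 1.93, which 7535 did. Groups were compared with limma 3.58.1 in R 4.3.3 (lmFit, eBayes with trend, 8 residual degrees of freedom), and p-values were adjusted over all tested probe sets (Benjamini-Hochberg) at a threshold of 0.05; adjusted p-values are from that fit unless a left-out array, a mean of probe sets or another setting is named beside them, when they are from a refit. Intervals are at 95%. The background of an array was the 90th percentile of 23 control probe sets of mouse, yeast and reverse-strand sequences, some of human genes and bright (mean up to 4.47), so it may be set high. A gene was represented by its brightest probe set. Named were all members, STK38, MYC and the listed relatives. Of the rest of the pathway list, the 5 largest called rises and falls were named (4 fell). Marker genes and BIRC2 were named after their values were seen. The members and lists were chosen with earlier results of these data known. The scripts were tested on simulated data. Plots were drawn with matplotlib 3.10.9.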

Additional observations from a re-analysis of the deposited data

Results flagged for a closer look

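In 168 groups of 5 arrays, 13 single arrays lay far from the rest of their group by Dixon's ratio. This is a test that chance alone passes in about 5% of groups. The groups covered all probe sets of the named genes except BIRC2, and the marker genes. Of the 13, 6 were STK38 shRNA replicate 4. BIK read 4.57 in non-target replicate 1, where the other controls read 5.50 to 5.80. The brighter BCL2L11 probe set read 2.41 in STK38 shRNA replicate 1, where the others read 1.92 to 2.02, all below background. On STK38 shRNA replicate 4, STK38 itself read 2.46 (others with that shRNA 2.88 to 2.95) and the dimmer CASP9 probe set 2.70 (3.55 to 3.81). On the same array ITGAM read 3.49 (2.18 to 2.38), KRT18 2.81 (1.96 to 2.20), COL1A2 2.62 (1.77 to 1.96) and VWF 2.00 (1.66 to 1.74). On STK38 shRNA replicate 3, a second MYC probe set read 6.97 (6.38 to 6.48) and a second PPP1CA probe set 8.21 (7.79 to 7.91). Under background on every array, the dim VDAC1 probe set read 2.12 in non-target replicate 5 (2.26 to 2.30), CD14 1.97 in non-target replicate 3 (2.12 to 2.15) and CDH1 1.48 in STK38 shRNA replicate 5 (1.57 to 1.61).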

How the results depend on the processing

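The calls of the brightest BCL2 probe set, of both BCL2L1 probe sets and of both BAK1 probe sets held under all 17 refits at the threshold of 0.05, in which the scaling, the array weights, the filter, the variance model or a replicate block was varied or 1 array was omitted; at 0.01 the brighter BCL2L1 probe set was no longer called. With array weights 8 probe sets of the family were called in place of 5, and 1619 of all probe sets were called higher. At an adjusted p under 0.01 the counts were 1494 probe sets in all, 650 of them higher, and 9 pathway genes. Without single arrays, 1938 to 2836 probe sets, 5 to 7 of the family and 12 to 18 pathway genes were called. Differences near 0 changed sign: the second BCL2 probe set was -0.026 after quantile normalization, and without single arrays it ran from -0.021 to 0.057, the brighter BID probe set from -0.024 to 0.25, the brighter BCL2L11 probe set from -0.046 to 0.077, the third BAX probe set from -0.17 to 0.038 and BIK from -0.016 to 0.30; the cause was not tested. With the called genes left out of both means, an alternative chosen after seeing the data, the survival minus death difference was -0.051 in place of -0.59.

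With the replicate number as a block 2159 probe sets were called, 6 of them of the family, the added one being the brightest BAX probe set (0.28, adjusted p = 0.0493). Same-numbered arrays deviated together (correlation over 0.1) in 1 of 5 pairs, and differently numbered arrays had correlations from -0.23 to 0.23. Because the scatter within a group may be technical, this cannot show whether the numbers mark shared cultures. Without the filter the dimmer BCL2L11 probe set was called (-0.21, adjusted p = 0.0486), though below background. With the human reverse-strand controls left out of the background, 19 in place of 17 probe sets of the family exceeded it on some array. All 5 controls then exceeded it, in place of 0, at BAD, the dimmest BAX probe set and the brightest CASP10 probe set. The calls do not use the background.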
